A study of Homo sapiens with 12 samples.

Results

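The TGF-beta, activin and BMP pathway was examined in 2 breast cancer cell lines with and without the cell surface receptor CD44, through 55 genes given by symbol among the 58381 genes of the count table. The genes were 13 ligands, 5 genes of extracellular processing and latency, 9 antagonists and binding proteins, 5 type I receptors, 4 type II receptors, 2 co-receptors, 8 SMADs, 4 corepressors and ubiquitin ligases, and 5 target genes. Every symbol had exactly 1 row in the table, and 53 genes passed the filter on low counts. CD44 binds hyaluronan and has no kinase activity of its own.

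Hs578T and MDA-MB-231 are human cell lines of triple negative breast cancer, labelled as mammary gland. The study states that Hs578T came from a primary tumor and MDA-MB-231 from a distant metastasis. RNA was sequenced in 12 libraries, 3 each for Hs578T CD44 WT, Hs578T CD44 KO, MDA-MB-231 CD44 WT and MDA-MB-231 CD44 KO. Cells of all 4 groups carried a doxycycline-inducible Cas9 from a lentivirus kept under puromycin, were induced with doxycycline, and were starved in low serum before RNA was taken. CD44 KO cells received guides to the first and the fifth exon of CD44 and were sorted as CD29+ CD44- populations, not as clones. CD44 WT cells received transfection reagent without guides and were sorted as CD29+ CD44+, so guide transfection and knockout cannot be told apart here. The sources do not say that replicates were separate cultures, and p-values then measure the spread between these samples, which may be technical. One MDA-MB-231 CD44 WT library carried no usable replicate number and is called the unnumbered library.

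Ligands of this superfamily are secreted as dimers and bring together type II and type I serine/threonine kinase receptors. TGF-beta and activin receptors phosphorylate SMAD2 and SMAD3, and BMP receptors phosphorylate SMAD1, SMAD5 and SMAD9. These SMADs enter the nucleus with SMAD4, where they switch genes on or off. Latency proteins hold TGF-beta in the matrix, binding proteins such as follistatin and noggin capture ligands, and SMAD6 and SMAD7 inhibit the pathway from within. In breast cancer TGF-beta is known both for restraining growth and for promoting invasion.

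The 3 replicates of every group differed by more than sampling noise, and total counts ran from 10257586 to 19725543 per library. CD44 itself was at 494 to 527 CPM in the Hs578T CD44 WT libraries and at 24.9 to 28.6 CPM in the CD44 KO libraries, a log2 fold change of -4.21 ± 0.111 (SE, n = 3 per group, adjusted p = 3.16e-12). In MDA-MB-231 it went from 360 to 363 CPM down to 30.0 to 40.3 CPM, a log2 fold change of -3.40 ± 0.107 (adjusted p = 4.57e-11). CPM are counts scaled to a common library total with TMM factors. A log2 fold change sets CD44 KO against CD44 WT throughout and is given with its standard error. Of 4 mesenchymal, 4 epithelial, 4 luminal breast, 3 leukocyte and 3 endothelial markers, PGR was at 0 in all groups, and ESR1 and CD3E were at 0 in MDA-MB-231 CD44 KO. The mesenchymal markers summed to 7990 to 9170 CPM in Hs578T CD44 WT and 8230 to 10300 CPM in CD44 KO. For MDA-MB-231 this sum ran from 5090 to 5340 CPM (CD44 WT) and from 6630 to 7680 CPM (CD44 KO), where the groups did not overlap. The epithelial markers summed to 958 to 996 CPM in Hs578T CD44 WT and 875 to 932 CPM in CD44 KO. For MDA-MB-231 it ran from 913 to 1180 CPM (CD44 WT) and from 759 to 830 CPM (CD44 KO), so it was lower without overlap in CD44 KO of both lines. The luminal breast markers summed to 81.6 to 88.4 CPM in Hs578T CD44 WT and 93.8 to 107 CPM in CD44 KO, higher without overlap. Their sum in MDA-MB-231 was 67.2 to 92.3 CPM in CD44 WT and 63.6 to 71.6 CPM in CD44 KO, where the groups overlapped. The 3 leukocyte markers summed to 1.04 to 1.48 CPM in Hs578T CD44 WT and to 3.51 to 5.21 CPM in Hs578T CD44 KO, where PTPRC alone rose from 0.369 to 3.78 CPM. In MDA-MB-231 the same sum was at 0.891 to 0.943 CPM in CD44 WT and 0.424 to 0.762 CPM in CD44 KO. The endothelial sum was at 11.9 to 14.2 CPM in Hs578T CD44 WT and 14.8 to 15.5 CPM in CD44 KO, nearly all from PECAM1. The part of these markers in the results was not tested. In bulk RNA, fewer cells that express a gene and less RNA per cell cannot be told apart.

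Upstream sequence is shown for 5 genes on which the results turn: INHBB and BMP4, which fell in both lines, INHBA, which moved in opposite directions, BAMBI, which fell in Hs578T, and TGFBI, which rose in MDA-MB-231. Each run is the 250 bases before the RefSeq transcription start, 5′ to 3′ on the strand of the gene, in GRCh38.p14. Capitals mark CAGAC or its reverse complement GTCTG, a pentamer known to be bound by SMAD3 and SMAD4, and GGCGCC, its own reverse complement, known to be bound by SMADs in BMP target genes. No match overlapped another in these windows. The windows are INHBA chr7:41703091-41703340 on the minus strand, INHBB chr2:120345886-120346135 on the plus strand, BMP4 chr14:53955051-53955300 on the minus strand, BAMBI chr10:28677271-28677520 on the plus strand, and TGFBI chr5:136028738-136028987 on the plus strand. In the GENCODE 44 annotation the BMP4 window lies in an exon of ENSG00000287156 on the opposite strand, and 11 bases of the BAMBI window lie in a BAMBI exon. The gene positions deposited with the counts are wider. By these the INHBA and BMP4 windows lie inside the span of their genes, 41667168 to 41705834 and 53949736 to 53958761. The BAMBI and TGFBI windows reach past the gene starts at 28677342 and 136028895, and the INHBB window lies outside its gene.
INHBA: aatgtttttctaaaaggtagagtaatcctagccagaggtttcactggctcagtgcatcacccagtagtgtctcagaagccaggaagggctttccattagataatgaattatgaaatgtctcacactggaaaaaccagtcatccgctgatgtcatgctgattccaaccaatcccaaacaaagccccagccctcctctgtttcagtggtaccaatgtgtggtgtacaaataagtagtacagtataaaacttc
INHBB: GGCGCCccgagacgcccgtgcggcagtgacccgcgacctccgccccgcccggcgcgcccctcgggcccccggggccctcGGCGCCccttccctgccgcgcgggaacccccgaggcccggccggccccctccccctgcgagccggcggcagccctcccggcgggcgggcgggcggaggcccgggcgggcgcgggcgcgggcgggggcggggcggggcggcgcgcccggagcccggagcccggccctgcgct
BMP4: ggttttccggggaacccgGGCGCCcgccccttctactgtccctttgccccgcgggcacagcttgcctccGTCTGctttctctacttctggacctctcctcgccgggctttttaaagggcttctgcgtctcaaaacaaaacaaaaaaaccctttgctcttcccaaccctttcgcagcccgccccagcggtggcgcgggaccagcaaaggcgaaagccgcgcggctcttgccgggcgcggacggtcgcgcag
BAMBI: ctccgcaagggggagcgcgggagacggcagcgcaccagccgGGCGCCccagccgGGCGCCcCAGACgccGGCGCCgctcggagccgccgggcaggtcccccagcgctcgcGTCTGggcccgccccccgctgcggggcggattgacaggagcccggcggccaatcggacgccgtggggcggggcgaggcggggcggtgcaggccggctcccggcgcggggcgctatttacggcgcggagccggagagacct
TGFBI: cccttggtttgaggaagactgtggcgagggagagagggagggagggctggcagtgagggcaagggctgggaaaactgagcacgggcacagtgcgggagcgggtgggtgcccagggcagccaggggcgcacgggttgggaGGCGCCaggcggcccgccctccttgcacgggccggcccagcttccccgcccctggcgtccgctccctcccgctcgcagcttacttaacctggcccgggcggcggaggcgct
The INHBA window held neither motif. The INHBB window held GGCGCC 2 times, the BMP4 window held each motif 1 time, the BAMBI window held GGCGCC 3 times and CAGAC 2 times, and the TGFBI window held GGCGCC 1 time. Of 50 genes of the set with a RefSeq window, 17 held CAGAC and 17 held GGCGCC (34% each), against 38% and 16.4% of all 35116 windows of the same length. A match describes letters and says nothing about binding.

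The first question was which of these genes changed when CD44 was removed. In Hs578T, 8 of 53 genes passed an adjusted p of at most 0.01 (15.1%, against 7.51% of all 15836 genes tested). INHBE and BMPR1B rose, where 3.64% of all genes did, and INHBA, INHBB, BMP4, FSTL3, BAMBI and PMEPA1 fell, where 3.86% did. In MDA-MB-231, 10 of 53 genes passed (18.9%, against 4.62% of all genes tested). INHBA, FST, ENG, TGFBI and PMEPA1 rose, where 1.97% of all genes did, and INHBB, BMP4, FSTL1, CHRDL1 and ID3 fell, where 2.65% did. Over the 53 genes the log2 fold change had a median of -0.07 for Hs578T and 0.11 for MDA-MB-231, beside -0.00162 and -0.00958 over all genes tested. The CD44 KO and CD44 WT libraries did not overlap for 20 of 53 genes in Hs578T, where 37.3% of all genes did not overlap, and for 18 of 53 genes in MDA-MB-231, where 25.5% did not. The genes of the set were chosen with earlier results of these data known, and no test was run on these shares. Both lines were fitted together, and the counts of calls depended on this. Over all genes tested, 1189 were called in Hs578T and 731 in MDA-MB-231, against 1525 and 315 with each line fitted alone. The counts that the study reports lie nearer to those of the separate fits. With MDA-MB-231 fitted alone the calls of ENG and ID3 were lost.

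**Figure D1:**
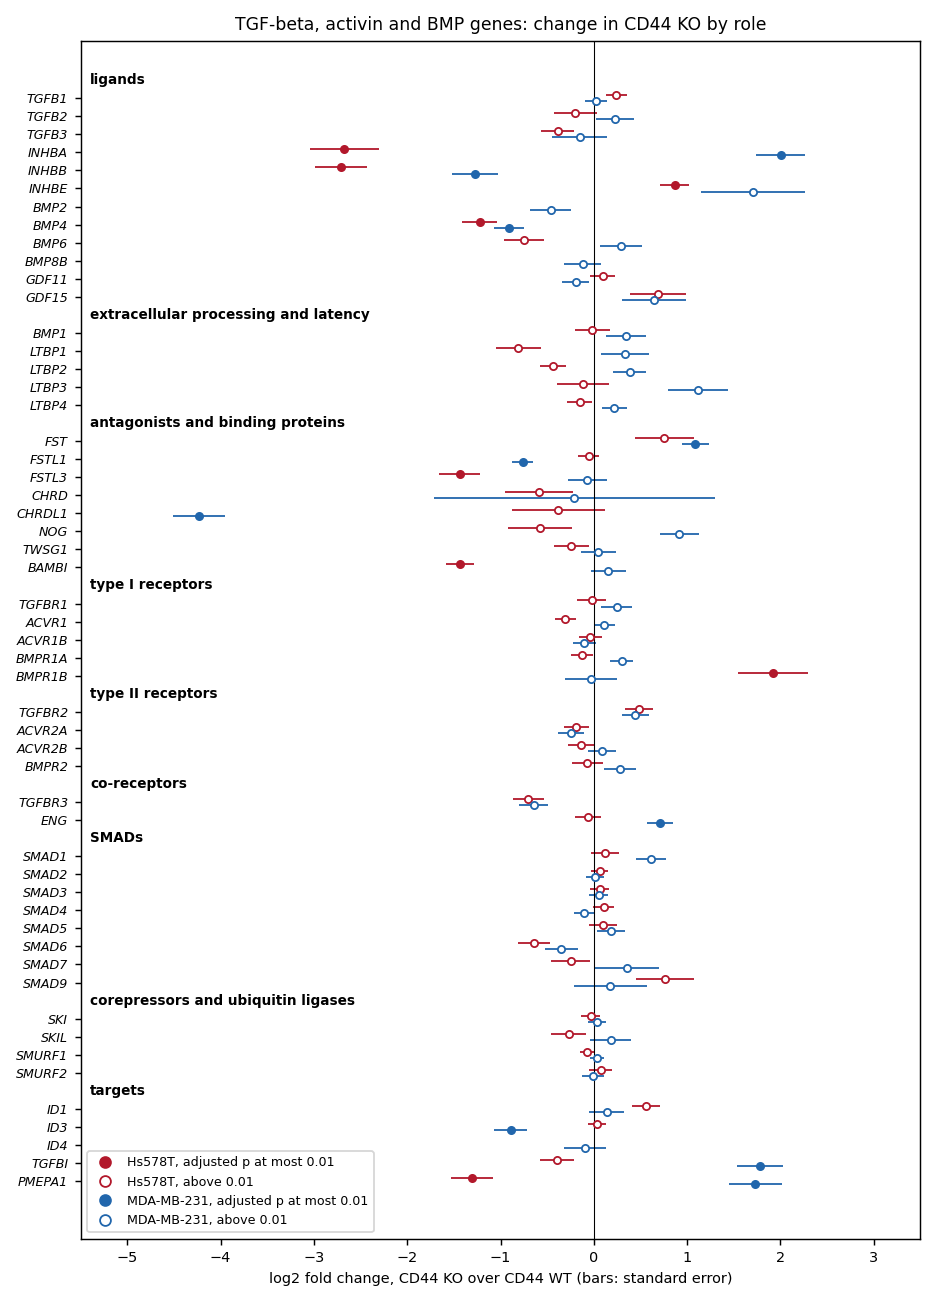
CD44 KO against CD44 WT on the log2 scale for the 53 genes tested, grouped by role, with Hs578T in red and MDA-MB-231 in blue, bars as standard errors and filled points at an adjusted p of at most 0.01. BMP2, BMP8B and ID4 have no Hs578T point because every Hs578T library held 0 counts. INHBA and PMEPA1 lie on opposite sides of 0 in the 2 lines, while the corepressors, ubiquitin ligases and type II receptors lie between -0.27 and 0.48.

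Activin subunits gave the largest changes among the ligands. INHBA, on chromosome 7 (41667168 to 41705834, minus strand), encodes the activin beta A subunit, which forms activin A as a dimer. In Hs578T CD44 WT it was at 3.12, 3.54 and 1.52 CPM, and in CD44 KO at 0.401, 0.370 and 0.512 CPM. All CD44 KO libraries lay below all CD44 WT libraries, and INHBA fell by 2.67 on the log2 scale (SE 0.371, adjusted p = 0.000146). In MDA-MB-231 CD44 WT it was at 1.97 CPM in replicate 1, 2.76 in replicate 3 and 1.87 in the unnumbered library, and in CD44 KO at 9.83, 8.95 and 7.80 CPM. Here every CD44 KO library was above every CD44 WT library, with a log2 fold change of 2.00 ± 0.260 (adjusted p = 0.000169). The level before knockout was similar, 2.73 ± 1.06 CPM in Hs578T and 2.20 ± 0.485 CPM in MDA-MB-231 (SD, n = 3), and the difference between the CD44 WT groups did not pass (log2 difference 0.31, adjusted p = 0.337).

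INHBB, on chromosome 2 (120346143 to 120351808, plus strand), encodes the activin beta B subunit and fell in both lines. Hs578T CD44 WT was at 53.1, 40.3 and 21.7 CPM and CD44 KO at 5.94, 4.38 and 7.59 CPM, a log2 fold change of -2.71 ± 0.276 (adjusted p = 1.01e-05). The groups did not overlap, although the CD44 WT libraries spread widely and replicate 3 was the lowest. MDA-MB-231 CD44 WT was at 40.0 CPM in replicate 1, 45.9 in replicate 3 and 47.8 in the unnumbered library, and CD44 KO at 17.8, 21.4 and 15.7 CPM, a log2 fold change of -1.27 ± 0.247 (adjusted p = 0.00396). These groups did not overlap either. The call in MDA-MB-231 was lost when any 1 of 5 of its 6 libraries was left out, all but CD44 WT replicate 1, with adjusted p from 0.0109 to 0.0213 and log2 fold changes from -1.41 to -1.17. The fall was 1.44 larger in Hs578T on the log2 scale, a difference that did not pass (adjusted p = 0.0223).

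INHBE encodes the activin beta E subunit, best known from liver. It was abundant in Hs578T, at 143, 120 and 113 CPM in CD44 WT and 241, 246 and 200 CPM in CD44 KO. The groups did not overlap, and it rose by 0.87 on the log2 scale (SE 0.154, adjusted p = 0.00134). That call was lost without Hs578T CD44 WT replicate 2 (adjusted p = 0.0117) or CD44 KO replicate 2 (adjusted p = 0.0107). In MDA-MB-231 the gene was nearly absent, with 12 counts over the CD44 WT libraries and 47 over the CD44 KO libraries, 33 of them in replicate 2, and its log2 fold change of 1.70 ± 0.555 did not pass (adjusted p = 0.0643), although DESeq2 called it.

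BMP4, on chromosome 14 (53949736 to 53958761, minus strand), is a secreted ligand of the BMP receptors and fell in both lines. In Hs578T it was at 31.7, 25.5 and 19.6 CPM in CD44 WT and at 12.1, 8.57 and 12.6 CPM in CD44 KO, a log2 fold change of -1.22 ± 0.189 (adjusted p = 0.000440). In MDA-MB-231 it was at 151 CPM in CD44 WT replicate 1, 119 in replicate 3 and 115 in the unnumbered library, and at 78.4, 62.0 and 64.9 CPM in CD44 KO, a log2 fold change of -0.91 ± 0.164 (adjusted p = 0.00227). The groups did not overlap in either line. In MDA-MB-231 the call was lost without CD44 KO replicate 2 (adjusted p = 0.0195) or replicate 3 (adjusted p = 0.0135). The difference between the falls was -0.31 ± 0.249 on the log2 scale and did not pass (adjusted p = 0.489).

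None of the 3 TGF-beta ligand genes passed in either line. TGFB1, the most abundant of them per length, was at 279 ± 17.5 CPM in Hs578T CD44 WT and 330 ± 18.5 CPM in CD44 KO (log2 fold change 0.24, adjusted p = 0.179), and at 104 ± 5.41 and 106 ± 19.9 CPM in MDA-MB-231 (log2 fold change 0.02, adjusted p = 0.964). In Hs578T, TGFB2 had a log2 fold change of -0.20 and TGFB3 of -0.39, and in MDA-MB-231 these were 0.23 and -0.15. BMP6 was at 11.1 ± 1.07 CPM in Hs578T CD44 WT and 6.55 ± 1.92 CPM in CD44 KO, with an adjusted p of 0.0276. GDF11 and GDF15, a growth factor related to myostatin and a stress-induced cytokine, did not pass in either line. BMP2 and BMP8B had 0 counts in all 6 Hs578T libraries and log2 fold changes of -0.46 and -0.12 in MDA-MB-231. BMP8A did not pass the filter, with 3 counts over the MDA-MB-231 CD44 WT libraries, 3 over the CD44 KO libraries and 0 in Hs578T. BMP8A and BMP8B are near-identical copies, so their counts are uncertain.

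The 5 genes of extracellular processing and latency gave no call in edgeR or DESeq2 in either line, with 2 at an unadjusted p under 0.05 in each. LTBP1, a latent TGF-beta binding protein, was at 167, 155 and 117 CPM in Hs578T CD44 WT and at 84.9, 87.2 and 77.8 CPM in CD44 KO. Those groups did not overlap, but the log2 fold change of -0.81 ± 0.242 did not pass (adjusted p = 0.0354). LTBP3 was at 10.7, 14.3 and 10.8 CPM in MDA-MB-231 CD44 WT and at 10.6, 25.1 and 42.8 CPM in CD44 KO, overlapping groups with a log2 fold change of 1.12 ± 0.322 (adjusted p = 0.0390). LTBP2, LTBP4 and BMP1, a protease that cleaves procollagen and chordin, lay between -0.44 and 0.38.

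**Figure D2:**
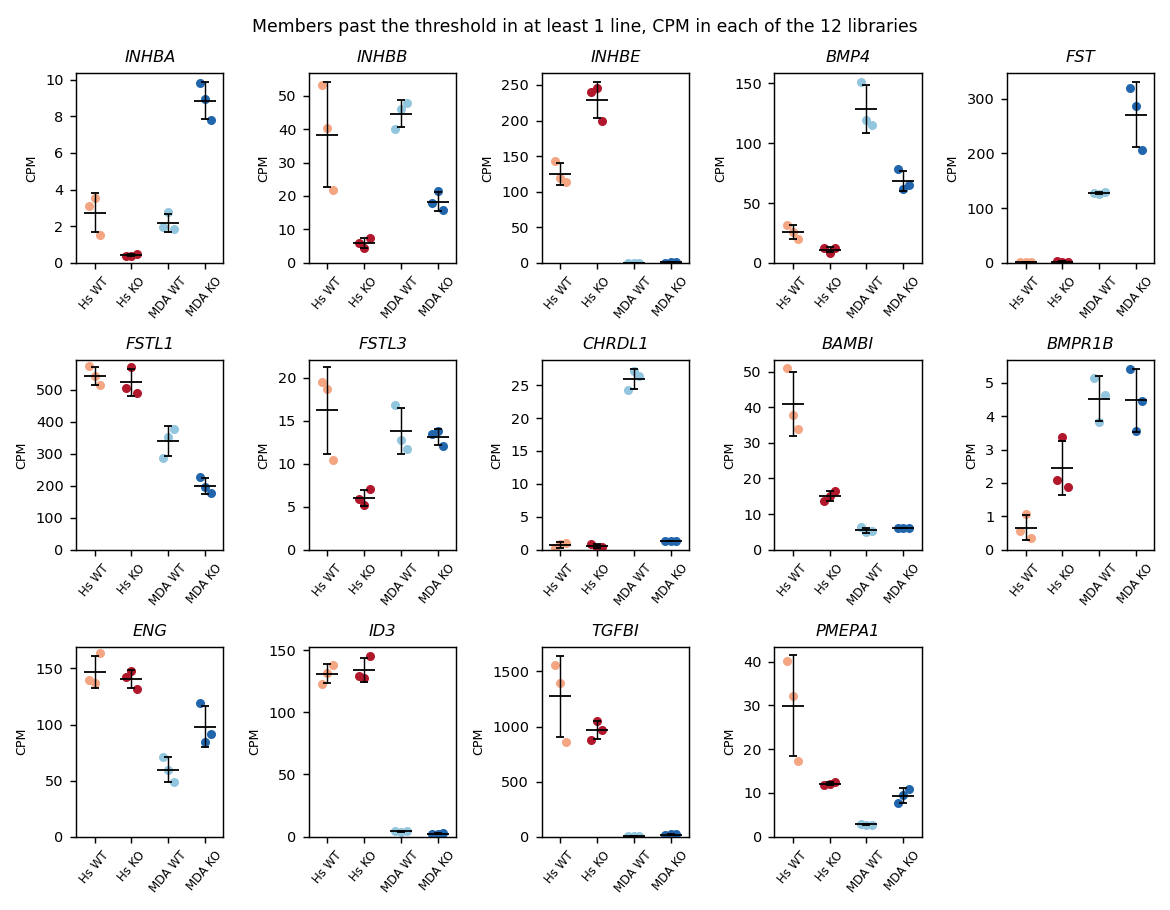
CPM in each of the 12 libraries (points) with the group mean and SD (bars) for the 14 genes that passed in at least 1 line, each on its own linear axis from 0. INHBB and BMP4 are lower in CD44 KO of both lines, and INHBA and PMEPA1 go down in Hs578T CD44 KO and up in MDA-MB-231 CD44 KO.

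Among the antagonists and binding proteins, FSTL3 and BAMBI fell in Hs578T, and FST rose while FSTL1 and CHRDL1 fell in MDA-MB-231. FSTL3 is a secreted protein that binds activins. It was at 19.5, 18.8 and 10.4 CPM in Hs578T CD44 WT and at 5.86, 5.18 and 7.08 CPM in CD44 KO, without overlap, and fell by 1.44 on the log2 scale (SE 0.222, adjusted p = 0.000425). Levels in MDA-MB-231 were 13.8 ± 2.66 and 13.1 ± 0.921 CPM (log2 fold change -0.07, adjusted p = 0.904). Between the lines the fold changes differed by -1.37 ± 0.305, which narrowly did not pass (adjusted p = 0.0103).

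BAMBI, on chromosome 10 (28677342 to 28682939, plus strand), encodes a membrane protein that resembles a type I receptor but lacks the kinase domain and dampens signalling. It was at 50.9, 37.7 and 33.9 CPM in Hs578T CD44 WT and at 13.7, 15.1 and 16.5 CPM in CD44 KO. Every CD44 KO library was below every CD44 WT library, with a log2 fold change of -1.44 ± 0.149 (adjusted p = 1.15e-05). In MDA-MB-231 the gene was at 6.26, 4.95 and 5.17 CPM in CD44 WT and at 6.18, 6.04 and 6.02 CPM in CD44 KO, with a log2 fold change of 0.16 ± 0.183 (adjusted p = 0.664). BAMBI was the only gene called in Hs578T alone for which the difference between the lines also passed (-1.59 ± 0.235 on the log2 scale, adjusted p = 0.000520).

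FST encodes follistatin, which binds and neutralizes activins. MDA-MB-231 held it at 128 CPM in CD44 WT replicate 1, 126 in replicate 3 and 129 in the unnumbered library, and at 320, 287 and 205 CPM in CD44 KO. All CD44 KO libraries were higher, with a log2 fold change of 1.09 ± 0.146 (adjusted p = 0.000222). In Hs578T it was weak, at 2.15, 0.987 and 1.10 CPM in CD44 WT and 2.73, 2.22 and 2.47 CPM in CD44 KO. The log2 fold change there was 0.76 ± 0.316 (adjusted p = 0.129), and the difference between the lines did not pass (adjusted p = 0.629).

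FSTL1, a secreted glycoprotein of the follistatin family, was at 287 CPM in MDA-MB-231 CD44 WT replicate 1, 353 in replicate 3 and 376 in the unnumbered library. In CD44 KO it was at 226, 194 and 179 CPM, without overlap, and fell by 0.76 on the log2 scale (SE 0.112, adjusted p = 0.000442). In Hs578T it was at 572, 542 and 514 CPM in CD44 WT and at 505, 572 and 491 CPM in CD44 KO, overlapping groups (log2 fold change -0.06 ± 0.110, adjusted p = 0.809). The fold changes of the lines differed by 0.71 ± 0.157 (adjusted p = 0.00985). That call was lost when any 1 of 10 libraries was left out, all but MDA-MB-231 CD44 WT replicate 1 and CD44 KO replicate 1, with adjusted p from 0.0182 to 0.0325, and with RLE factors (adjusted p = 0.0121) or library size alone (adjusted p = 0.0118).

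CHRDL1, on chromosome X (110673856 to 110795819, minus strand), encodes a secreted BMP antagonist related to chordin and gave the largest fall of the set. MDA-MB-231 had 24.3 CPM in CD44 WT replicate 1, 27.2 in replicate 3 and 26.4 in the unnumbered library, and at 1.36, 1.38 and 1.38 CPM in CD44 KO. The groups were far apart, with a log2 fold change of -4.23 ± 0.275 (adjusted p = 2.37e-07). In Hs578T the gene was already low, at 0.208, 0.823 and 1.10 CPM in CD44 WT and 0.882, 0.308 and 0.426 CPM in CD44 KO (log2 fold change -0.38 ± 0.496, adjusted p = 0.680). Set against each other, the lines differed by 3.85 ± 0.607 (adjusted p = 0.000863), and without Hs578T CD44 KO replicate 1 it was 3.32 (adjusted p = 0.0120).

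NOG, which encodes the BMP antagonist noggin, stood just outside the threshold in MDA-MB-231. It was at 22.6, 22.5 and 23.7 CPM in CD44 WT and at 45.6, 46.9 and 37.3 CPM in CD44 KO, without overlap (log2 fold change 0.92 ± 0.213, adjusted p = 0.0119). DESeq2 called NOG in this line. Chordin, from CHRD, was at 4.37 ± 2.12 CPM in Hs578T CD44 WT and 2.93 ± 0.383 CPM in CD44 KO, and TWSG1, a modulator of BMP signalling, had log2 fold changes of -0.24 and 0.05. GREM1, which encodes the BMP antagonist gremlin, had 0 counts in all 12 libraries and was not tested. A count of 0 allows up to 3 counts over a group, 0.0781 CPM in Hs578T CD44 WT and 0.0852 CPM in MDA-MB-231 CD44 WT, and this limit covers counting error only.

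Of the receptors, BMPR1B rose in Hs578T and ENG rose in MDA-MB-231. BMPR1B, on chromosome 4 (94757968 to 95158448, plus strand), is a type I receptor for BMPs. It was at 0.555, 1.07 and 0.339 CPM in Hs578T CD44 WT and at 2.09, 3.39 and 1.88 CPM in CD44 KO, without overlap, with a log2 fold change of 1.92 ± 0.379 (adjusted p = 0.00283). The call was lost without Hs578T CD44 WT replicate 1, CD44 WT replicate 3 or CD44 KO replicate 2 (adjusted p from 0.0109 to 0.0228). MDA-MB-231 levels were 4.53 ± 0.671 CPM in CD44 WT and 4.47 ± 0.937 CPM in CD44 KO (log2 fold change -0.03, adjusted p = 0.997), and the difference between the lines did not pass (adjusted p = 0.0160).

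ENG, on chromosome 9 (127815012 to 127854756, minus strand), encodes endoglin, a co-receptor for TGF-beta and BMP ligands best known from endothelial cells. MDA-MB-231 had 71.4 CPM in CD44 WT replicate 1, 59.0 in replicate 3 and 49.2 in the unnumbered library, and at 119, 84.1 and 91.2 CPM in CD44 KO. The groups did not overlap (log2 fold change 0.71 ± 0.142, adjusted p = 0.00488), and the 3 endothelial markers summed to 1.69 to 3.33 CPM in CD44 WT and 1.78 to 4.15 CPM in CD44 KO of this line. The call was lost without CD44 WT replicate 3, without the unnumbered library or without CD44 KO replicate 1 (adjusted p from 0.0171 to 0.0239), and with the line fitted alone (adjusted p = 0.0301). In Hs578T, ENG was at 147 ± 14.6 CPM in CD44 WT and 141 ± 8.20 CPM in CD44 KO (log2 fold change -0.06, adjusted p = 0.833), and the difference between the lines did not pass (adjusted p = 0.0222).

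TGFBR3, which encodes the co-receptor betaglycan, was lower in all CD44 KO libraries of both lines but stood just outside the threshold. It was at 25.6, 24.8 and 23.2 CPM in Hs578T CD44 WT and at 14.3, 13.7 and 17.4 CPM in CD44 KO (log2 fold change -0.70 ± 0.168, adjusted p = 0.0101). MDA-MB-231 CD44 WT ran from 33.3 to 57.3 CPM and CD44 KO from 28.8 to 31.5 CPM (log2 fold change -0.65 ± 0.158, adjusted p = 0.0163). DESeq2 called TGFBR3 in both lines.

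The other type I receptors, TGFBR1, ACVR1, ACVR1B and BMPR1A, did not pass in either line and had log2 fold changes from -0.31 to 0.30. No type II receptor passed in edgeR or DESeq2, with TGFBR2 at an unadjusted p under 0.05 in both lines. In edgeR this was 0 of 4 genes, beside 7.51% of all genes tested in Hs578T and 4.62% in MDA-MB-231. TGFBR2, which binds TGF-beta directly, was at 94.7, 102 and 88.6 CPM in Hs578T CD44 WT and 120, 141 and 138 CPM in CD44 KO. In MDA-MB-231 it was at 235 CPM in CD44 WT replicate 1, 361 in replicate 3 and 391 in the unnumbered library, and at 400, 477 and 467 CPM in CD44 KO. The groups did not overlap in either line, yet the log2 fold changes of 0.48 ± 0.15 and 0.45 ± 0.147 had adjusted p of 0.0427 and 0.0712. ACVR2A and ACVR2B, the activin receptors, and BMPR2, the BMP receptor, lay between -0.24 and 0.28.

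None of the 8 SMAD genes passed in edgeR in either line, beside 7.51% of all genes tested in Hs578T and 4.62% in MDA-MB-231. At an unadjusted p under 0.05 there were 2 in Hs578T, SMAD6 and SMAD9, and 1 in MDA-MB-231, SMAD1, and DESeq2 called SMAD6 in Hs578T and SMAD1 in MDA-MB-231. SMAD2, SMAD3 and SMAD4 had log2 fold changes from -0.10 to 0.10 with standard errors from 0.093 to 0.113. SMAD6, an inhibitor of BMP signalling, was at 13.9, 13.5 and 12.4 CPM in Hs578T CD44 WT and 7.14, 8.94 and 9.30 CPM in CD44 KO (log2 fold change -0.65 ± 0.172, adjusted p = 0.0193). SMAD1 was at 7.37, 11.3 and 10.7 CPM in MDA-MB-231 CD44 WT and 16.2, 13.5 and 15.5 CPM in CD44 KO (log2 fold change 0.61 ± 0.163, adjusted p = 0.0249). The inhibitory SMAD7 had log2 fold changes of -0.25 and 0.35. The corepressors SKI and SKIL and the ubiquitin ligases SMURF1 and SMURF2 gave no call in edgeR or DESeq2 in either line, 0 at an unadjusted p under 0.05, and log2 fold changes from -0.27 to 0.18. Roles of 4 and 8 genes are too small to be told apart from the shares of all genes.

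Among the 5 target genes, PMEPA1 moved in opposite directions, and TGFBI and ID3 changed in MDA-MB-231. PMEPA1, on chromosome 20 (57648392 to 57711536, minus strand), is induced by TGF-beta, and its membrane protein binds SMAD2 and SMAD3 and restrains the signal. In Hs578T it was at 40.1, 32.2 and 17.4 CPM in CD44 WT and at 11.7, 12.1 and 12.5 CPM in CD44 KO, without overlap, a log2 fold change of -1.31 ± 0.225 (adjusted p = 0.00105). MDA-MB-231 held it at 3.00, 2.76 and 2.67 CPM in CD44 WT and at 7.62, 9.53 and 11 CPM in CD44 KO, again without overlap, a log2 fold change of 1.73 ± 0.284 (adjusted p = 0.00110). The lines differed by -3.04 ± 0.362 (adjusted p = 7.67e-05).

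TGFBI encodes a matrix protein induced by TGF-beta. In MDA-MB-231 it was at 6.17 CPM in CD44 WT replicate 1, 6.08 in replicate 3 and 4.19 in the unnumbered library, and at 14.4, 20.2 and 22.0 CPM in CD44 KO, without overlap (log2 fold change 1.78 ± 0.245, adjusted p = 0.000262). In Hs578T it was at 1560, 1399 and 859 CPM in CD44 WT and at 881, 1050 and 970 CPM in CD44 KO. Those groups overlapped, through CD44 WT replicate 3, and the log2 fold change of -0.40 ± 0.181 did not pass (adjusted p = 0.169). The difference between the lines was -2.18 ± 0.305 (adjusted p = 0.000322).

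ID3, a BMP target whose protein blocks the DNA binding of basic helix-loop-helix factors, fell in MDA-MB-231. It was at 4.88 CPM in CD44 WT replicate 1, 3.81 in replicate 3 and 4.19 in the unnumbered library, and at 1.86, 2.28 and 2.86 CPM in CD44 KO, without overlap (log2 fold change -0.89 ± 0.176, adjusted p = 0.00448). The call was lost without CD44 WT replicate 1, the unnumbered library, CD44 KO replicate 1 or CD44 KO replicate 2, with adjusted p from 0.0101 to 0.0284, and with the line fitted alone (adjusted p = 0.0582). In Hs578T it was at 123, 132 and 138 CPM in CD44 WT and 129, 128 and 145 CPM in CD44 KO, overlapping groups with a log2 fold change of 0.04 ± 0.0973 (adjusted p = 0.863). The fold changes of the lines differed by 0.93 ± 0.201 (adjusted p = 0.00848). That call was lost when any 1 of 10 libraries was left out, all but Hs578T CD44 WT replicate 3 and MDA-MB-231 CD44 KO replicate 3, with adjusted p from 0.0115 to 0.0348, and with library size alone (adjusted p = 0.0103). ID1 was at 82.5 ± 5.38 CPM in Hs578T CD44 WT and 122 ± 6.10 CPM in CD44 KO (log2 fold change 0.56, adjusted p = 0.0199), and ID4 had 0 counts in Hs578T and a log2 fold change of -0.10 in MDA-MB-231. DESeq2 called ID1 in Hs578T, where the groups did not overlap.

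For all 8 genes called in Hs578T, CD44 WT replicate 3 was the lowest of the 3 CD44 WT libraries, and so it was for 23 of the 42 other genes with counts there. Without that library 9 genes were called in Hs578T, 1 higher and 8 lower. Of all 15781 genes tested, 1223 were then called there.

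The next question was whether the lines shared their response. Of 14 genes called in either line, 4 were called in both, 50% of the Hs578T calls and 40% of the MDA-MB-231 calls. Over all genes tested 101 were called in both, 8.49% of the Hs578T calls and 13.8% of the MDA-MB-231 calls, 34 of them in opposite directions. No test was run on these shares. INHBB and BMP4 were lower in both, and INHBA and PMEPA1 fell in Hs578T and rose in MDA-MB-231. The difference between the lines, the Hs578T log2 fold change minus that of MDA-MB-231, passed for 7 of 53 genes (13.2%, against 4.12% of all genes tested). It was positive for FSTL1, CHRDL1 and ID3, against 2.33% of all genes, and negative for INHBA, BAMBI, TGFBI and PMEPA1, against 1.79%. Among these INHBA had the largest value at -4.68 ± 0.450 (adjusted p = 1.02e-05). The split of 3 positive and 4 negative became 2 and 5 with RLE factors and 1 and 5 with library size alone. Without Hs578T CD44 KO replicate 1 the difference passed for 4 genes, beside 436 of all 15767 genes tested. The difference passed for 1 of the 4 genes called in Hs578T alone and for 4 of the 6 called in MDA-MB-231 alone. The remaining 39 genes tested passed in neither line nor in the difference, with log2 fold changes from -0.81 for LTBP1 to 0.76 for SMAD9 in Hs578T and from -0.65 for TGFBR3 to 1.12 for LTBP3 in MDA-MB-231.

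Of 75 other genes of the pathway, 41 were tested. In Hs578T 1 passed (2.44%, against 7.51% of all genes tested), NEO1, which encodes neogenin, a receptor for repulsive guidance molecules. It was at 8.32, 11.4 and 10.2 CPM in CD44 WT and 16.1, 18.3 and 13.9 CPM in CD44 KO (log2 fold change 0.70 ± 0.153, adjusted p = 0.00567). The call was lost without CD44 WT replicate 1 or 3 or CD44 KO replicate 1 or 2, with adjusted p from 0.0130 to 0.0409. The difference between the lines was 0.91 ± 0.202 (adjusted p = 0.00957) and was lost under 15 of 20 alternatives, where the highest adjusted p was 0.0351. In MDA-MB-231 3 passed (7.32%, against 4.62% of all genes tested), ITGB8 and NEDD4L higher and NRROS lower. ITGB8, the beta 8 integrin subunit that helps to release latent TGF-beta, went from 1.56 ± 0.544 to 4.72 ± 0.423 CPM (log2 fold change 1.58 ± 0.307, adjusted p = 0.00384). NRROS, which anchors latent TGF-beta in myeloid cells, went from 13.3 ± 1.28 to 6.46 ± 0.442 CPM (log2 fold change -1.04 ± 0.214, adjusted p = 0.00575), beside a leukocyte marker sum of 0.891 to 0.943 and 0.424 to 0.762 CPM. NEDD4L, a ubiquitin ligase of activated SMAD2 and SMAD3, went from 241 ± 20.8 to 342 ± 54.7 CPM (log2 fold change 0.50 ± 0.106, adjusted p = 0.00672). In MDA-MB-231 the median over the 16 tested genes within 2 Mb of NEDD4L was 0.56 on the log2 scale, and over the 36 within 2 Mb of NRROS it was -0.30. The part of these positions in the results was not tested. Each of the 3 calls was lost when any 1 of several libraries was left out: for ITGB8 each MDA-MB-231 library but the unnumbered one, with adjusted p from 0.0120 to 0.0147. For NRROS these were all 6 MDA-MB-231 libraries and Hs578T CD44 KO replicate 3, with adjusted p from 0.0108 to 0.0418. For NEDD4L these were MDA-MB-231 CD44 WT replicates 1 and 3, CD44 KO replicates 1 and 2, all Hs578T CD44 KO libraries and Hs578T CD44 WT replicate 2, with adjusted p from 0.0106 to 0.0327, and the call was also lost with the line fitted alone (adjusted p = 0.0437).

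Of 38 genes known to respond to TGF-beta or BMP, 34 were tested, and 4 fell in Hs578T (11.8%, against 3.86% of all genes tested) and 5 rose in MDA-MB-231 (14.7%, against 1.97%). This list and that of other pathway genes were chosen with earlier results of these data known, and no test was run on their shares. The 34 genes had medians of -0.29 for Hs578T and 0.02 for MDA-MB-231 on the log2 scale. COL1A2, which encodes a chain of type I collagen, fell the most in Hs578T. It was at 103, 104 and 70.8 CPM in CD44 WT and at 1.68, 2.96 and 2.13 CPM in CD44 KO, a log2 fold change of -5.32 ± 0.224 (adjusted p = 9.88e-09). In MDA-MB-231 COL1A2 had 1 count over 6 libraries. TGM2, the crosslinking enzyme transglutaminase 2, was at 2.70, 3.37 and 1.10 CPM in Hs578T CD44 WT and at 0.481, 0.493 and 0.426 CPM in CD44 KO (log2 fold change -2.34 ± 0.438, adjusted p = 0.00192). In MDA-MB-231 it was at 188, 266 and 258 CPM in CD44 WT and at 488, 575 and 575 CPM in CD44 KO (log2 fold change 1.20 ± 0.156, adjusted p = 0.000178). The groups overlapped in neither line, and the difference between the lines was -3.54 ± 0.455 (adjusted p = 0.000133). The Hs578T call of TGM2 was lost without CD44 WT replicate 1 or 2 or CD44 KO replicate 2 or 3, with adjusted p from 0.0110 to 0.0131.

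**Figure D3:**
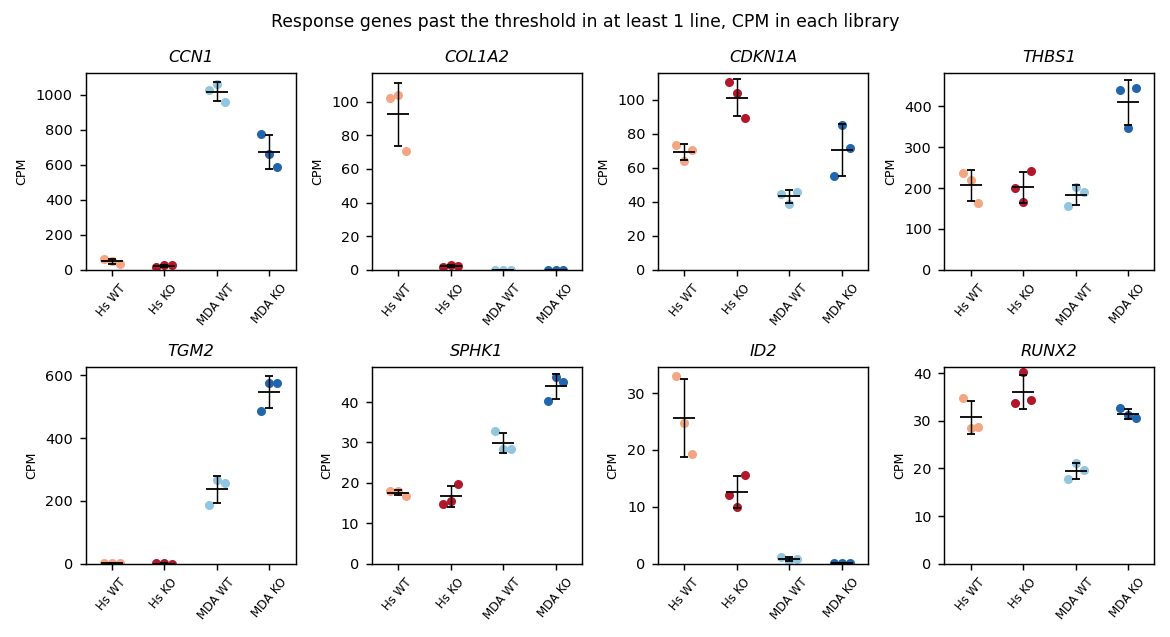
CPM in each of the 12 libraries (points) with the group mean and SD (bars) for the 8 response genes that passed in at least 1 line, on linear axes from 0. COL1A2 falls to near 0 in Hs578T CD44 KO, and TGM2 and THBS1 are higher in all MDA-MB-231 CD44 KO libraries than in the CD44 WT libraries.

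CCN1, a matrix-associated signalling protein, was at 49.0 ± 14.8 CPM in Hs578T CD44 WT and 23.6 ± 5.72 CPM in CD44 KO (log2 fold change -1.06 ± 0.202, adjusted p = 0.00240). The fourth call there was ID2, a relative of ID3, at 25.6 ± 6.91 and 12.5 ± 2.79 CPM (log2 fold change -1.04 ± 0.213, adjusted p = 0.00379). Over the 21 tested genes within 2 Mb of ID2 the median was -0.40 for Hs578T and -0.45 for MDA-MB-231 on the log2 scale, and their part in the ID2 result was not tested. The CCN1 call was lost without CD44 WT replicate 1 or 2 or CD44 KO replicate 1 (adjusted p from 0.0110 to 0.0178), and the ID2 call without CD44 WT replicate 1 or 2 or CD44 KO replicate 1 or 2 (adjusted p from 0.0139 to 0.0312). Only 1 response gene was left in Hs578T without CD44 WT replicate 1 or without replicate 2, 2 without CD44 KO replicate 1 or without replicate 2, 8 without CD44 WT replicate 3 and 7 without MDA-MB-231 CD44 WT replicate 1. Over all genes tested these fits called 620, 698, 705, 605, 1223 and 1685 in Hs578T, in that order.

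In MDA-MB-231 THBS1, which encodes thrombospondin 1, an activator of latent TGF-beta, was at 156 CPM in CD44 WT replicate 1, 202 in replicate 3 and 190 in the unnumbered library, and at 440, 347 and 445 CPM in CD44 KO. The groups did not overlap (log2 fold change 1.17 ± 0.158, adjusted p = 0.000243), while in Hs578T THBS1 was at 207 ± 38.0 and 202 ± 38.0 CPM (log2 fold change -0.04, adjusted p = 0.926). The lines differed by -1.20 ± 0.222 (adjusted p = 0.00303), and it was lost without Hs578T CD44 WT replicate 1 or 2 or CD44 KO replicate 1 or 2 (adjusted p from 0.0101 to 0.0112). CDKN1A, the cell cycle inhibitor p21, rose by 0.71 on the log2 scale (SE 0.138, adjusted p = 0.00400). In Hs578T its log2 fold change was 0.55 ± 0.135, just outside the threshold (adjusted p = 0.0122). RUNX2 and SPHK1, a transcription factor of bone formation and a lipid kinase, had log2 fold changes of 0.69 ± 0.117 (adjusted p = 0.00144) and 0.55 ± 0.118 (adjusted p = 0.00704) in MDA-MB-231. The CDKN1A call was lost without MDA-MB-231 CD44 WT replicate 3 or CD44 KO replicate 2 or 3 (adjusted p from 0.0127 to 0.0279). The SPHK1 call was lost without any 1 MDA-MB-231 library but CD44 WT replicate 1, or without Hs578T CD44 KO replicate 2 (adjusted p from 0.0105 to 0.0423). With the line fitted alone CDKN1A had an adjusted p of 0.0264 and SPHK1 of 0.0193, both above the threshold. Without CD44 KO replicate 2 or without replicate 3, 3 response genes were called in MDA-MB-231. Over all genes tested these fits called 355 and 459 there. ID2, RUNX2 and SPHK1 complete small counts and were named after their values were seen.

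The CD44 WT cells of the lines differed in most of these genes before any knockout. Of 53 genes 41 passed (77.4%, against 61.5% of all genes tested), 27 higher in Hs578T, where 32.2% of all genes were, and 14 higher in MDA-MB-231, where 29.4% were. The largest differences toward Hs578T were INHBE, at 125 ± 15.6 CPM against 0.334 ± 0.206 CPM in MDA-MB-231 (log2 difference 8.48 ± 0.294, adjusted p = 1.55e-12), and TGFBI, at 1273 ± 368 against 5.48 ± 1.12 CPM (log2 difference 7.85 ± 0.260, adjusted p = 1.13e-12). CHRD, ID3 and PMEPA1 followed with log2 differences of 5.53, 4.93 and 3.41. Toward MDA-MB-231, BMP8B, BMP2 and ID4 had 0 counts in the 3 Hs578T CD44 WT libraries and were at least 95.6-fold, 80.7-fold and 46.9-fold higher, the zeros being set to a floor of 3 counts summed over a group. FST, at 127 ± 1.5 against 1.41 ± 0.641 CPM, and CHRDL1, at 25.9 ± 1.51 against 0.710 ± 0.457 CPM, had log2 differences of -6.45 ± 0.223 (adjusted p = 1.54e-12) and -5.23 ± 0.307 (adjusted p = 5.93e-10).

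Per length, the highest levels in Hs578T CD44 WT were those of TGFBI, at 163 CPM per kb of exon, TGFB1, at 86.1 CPM per kb, and ID3, at 72.8 CPM per kb. In MDA-MB-231 CD44 WT they were those of TGFBR2, at 69.9 CPM per kb, FST, at 42.9 CPM per kb, and BMP4, at 41.7 CPM per kb. INHBA was low in both lines, at 0.329 and 0.265 CPM per kb. The receptors TGFBR1 and TGFBR2 stood in opposite order in the lines, with TGFBR1 at 21.9 and 5.86 CPM per kb and TGFBR2 at 20.2 and 69.9 CPM per kb, Hs578T first. Both differences passed, with log2 differences of 1.90 ± 0.164 (adjusted p = 5.09e-08) and -1.79 ± 0.152 (adjusted p = 4.58e-08).

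**Figure D4:**
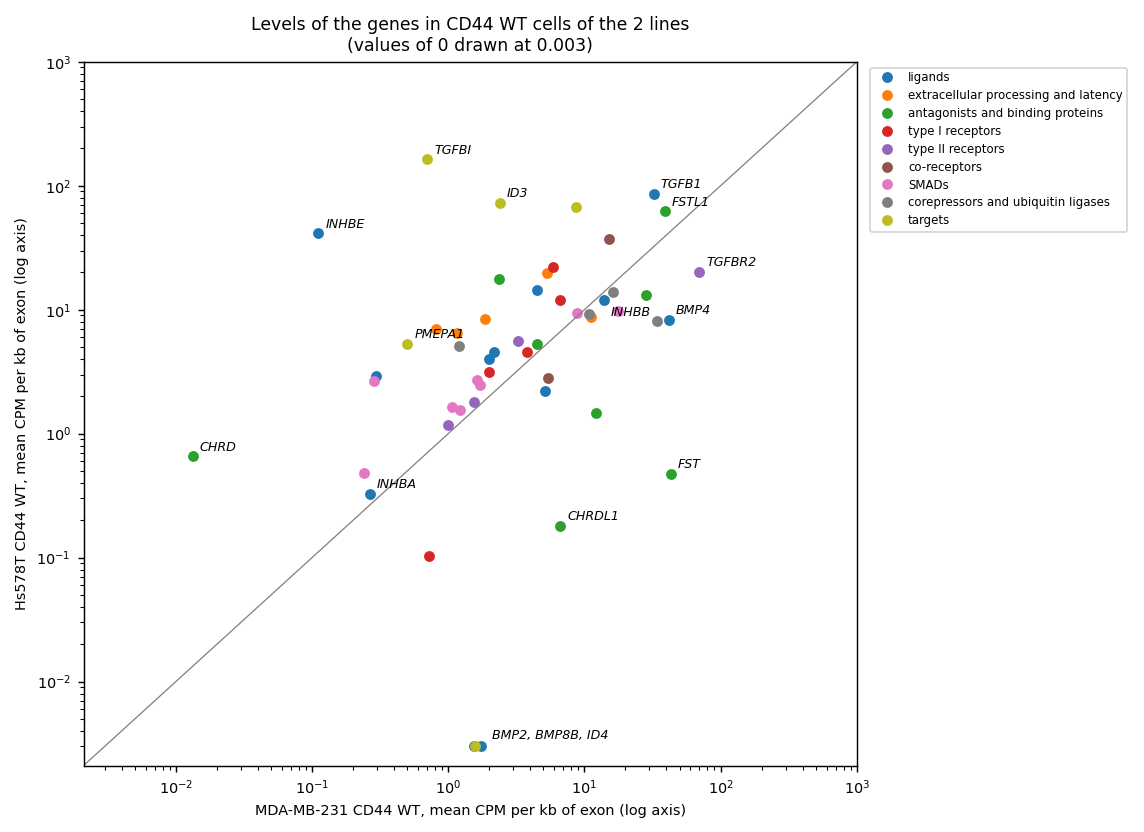
Mean CPM per kb of exon in CD44 WT cells of MDA-MB-231 (x axis) and Hs578T (y axis) for the 53 genes tested, both on log axes, coloured by role, with the line of equal level. TGFBI, INHBE, ID3 and CHRD lie far above the line, FST and CHRDL1 far below it, and BMP2, BMP8B and ID4, at 0 in Hs578T, are drawn at 0.003.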

How the data were processed

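RNA of cells that were sorted and then grown on in culture was made into 12 stranded mRNA libraries and sequenced paired-end on 1 lane. Per the submitters' processing notes and the file header, the authors aligned reads with HISAT2 2.1.0 to GRCh38 and counted pairs with featureCounts 1.6.2 on GENCODE 28, keeping pairs with both ends aligned, a mapping quality of at least 10 and the reverse strand. The deposited values are raw, unnormalized counts, 1 whole number for each gene and library, beside exonic lengths and gene positions. The study states its filter as genes under 300 nt; it was read as at least 300 nt.

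The test covered 15836 genes, those above 1 CPM in 2 or more libraries whose exons span 300 nt or more. Models were fitted with edgeR 4.0.16 (R 4.3.3), TMM factors, 4 group means over all 12 libraries and the quasi-likelihood test (legacy fit), with Benjamini-Hochberg adjustment over all genes tested. Calls needed an adjusted p of 0.01 or less, at any fold. The standard error is the unshrunken log2 fold change divided by the square root of F, and the printed fold change uses the default prior count. Levels between genes are compared per kb of exon. The depth, 10257586 to 19725543 counts per library, limits weakly expressed genes most. The fit was tested on simulated data. Neither the title numbers nor the sets of label numbers met the criterion for pairing, a correlation over 0.1 in every pair, so no block was used.

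The 55 genes, the lists of other pathway, response and marker genes, the roles and the tests were chosen with earlier results of these data known. Genes called in a knockout contrast or in the difference were given in full, the 5 largest differences in each direction between the CD44 WT groups and the 3 largest changes of each other list were named. Alternatives were DESeq2 1.42.0, RLE factors, library size alone, no filter on low counts, robust estimation, a threshold of 0.05, replicate blocks, each line alone and each library left out. Promoter windows came from RefSeq on GRCh38.p14, and exon overlaps from GENCODE 44.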

Additional observations from a re-analysis of the deposited data

Results flagged for a closer look

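The change on CD44 KO was unequal in the lines, by the test of the difference itself at an adjusted p of at most 0.01, for 12 of the genes described or checked. The values are the Hs578T log2 fold change minus that of MDA-MB-231. For CD44 itself it was -0.81. Among the ligands and antagonists it was -4.68 for INHBA, 0.71 for FSTL1, 3.85 for CHRDL1 and -1.59 for BAMBI. Among the targets it was 0.93 for ID3, -2.18 for TGFBI and -3.04 for PMEPA1. Of the other lists it was 0.91 for NEO1, -1.20 for THBS1 and -3.54 for TGM2. Of 20 alternatives the difference was lost under 15 for NEO1, 13 each for FSTL1 and ID3, 4 for THBS1 and 1 for CHRDL1. For the leukocyte marker PTPRC it was 5.66, with 0.369 to 3.78 CPM from CD44 WT to CD44 KO in Hs578T and 0.287 to 0.0506 CPM in MDA-MB-231. PTPRC was not followed through the alternatives, and its MDA-MB-231 levels lie below the 1 CPM of the filter.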

How the results depend on the processing

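Of 54 named calls, 32 were kept under every setting, 22 were lost under at least 1 and 0 changed sign. The kept calls include those of CD44 itself and the 5 largest differences in each direction between the CD44 WT groups. All 22 lost calls were of listed genes in a knockout contrast or in the difference, so these calls are less stable than the pooled count. The set counted 8 calls in Hs578T, 10 in MDA-MB-231, 7 in the difference and 41 between the CD44 WT groups. Other pathway genes counted 1 and 3 and response genes 4 and 5 in Hs578T and MDA-MB-231. With an adjusted p of at most 0.05 the set counted 14 in Hs578T and 15 in the difference. Other pathway genes counted 6 and 6 and response genes 10 and 8 in Hs578T and MDA-MB-231. At that threshold 2253 of all 15836 genes tested were called in Hs578T, 1518 in MDA-MB-231 and 1670 in the difference. Without the filter on low counts the set counted 16, 17 and 16 in Hs578T, MDA-MB-231 and the difference. Other pathway genes then counted 9 and 5 and response genes 13 and 11. Of all 29625 genes then tested, 1984, 1370 and 1373 were called in Hs578T, MDA-MB-231 and the difference, and the cause was not tested. DESeq2 counted 12 for the difference and 4 other pathway genes in Hs578T, and the cause was not tested. Of all 15836 genes it called 1179 in the difference and 1553 in Hs578T. With each line fitted alone, a fit with fewer samples, Hs578T gave 13 genes of the set, 5 other pathway genes and 8 response genes. MDA-MB-231 gave 3 response genes. Of all genes then tested, 1525 of 14655 were called in Hs578T and 315 of 13609 in MDA-MB-231.

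The replicate numbers of the titles did not pair libraries: correlations of same-numbered libraries were -0.0957 to 0.0222 in Hs578T and 0.00793 and 0.164 in MDA-MB-231. Sets of consecutive label numbers gave 0.0315, 0.101 and 0.134 in Hs578T and 0.00793, 0.164 and 0.0992 in MDA-MB-231, all positive but not all over 0.1. Between the lines, libraries of the same set gave -0.00115 to 0.148, with only the lowest value negative. A replicate block on the title numbers leaves out the unnumbered library. In MDA-MB-231 it gave 6 genes of the set, 0 other pathway genes and 3 response genes, beside 436 of all 15785 genes tested. In Hs578T it gave 2 other pathway genes, beside 1076 of all genes tested. It lost 13 named calls, with adjusted p from 0.0123 to 0.0517: INHBB, ENG, ID3, PMEPA1 (adjusted p = 0.0126), NRROS, ITGB8, NEDD4L, CDKN1A, SPHK1 and RUNX2 (adjusted p = 0.0161) in MDA-MB-231 and the differences of FSTL1, ID3 and NEO1. A replicate block on the sets gave 2 other pathway genes in Hs578T and lost the differences of ID3 and NEO1 (adjusted p 0.0102 and 0.0103). Of all 15836 genes tested it called 1305 in Hs578T. Leaving out 1 library at a time gave 6 to 11 genes of the set in Hs578T (fewest without CD44 KO replicate 2), 7 to 11 in MDA-MB-231 (fewest without CD44 KO replicate 2 or the unnumbered library), 4 to 9 in the difference (fewest without Hs578T CD44 KO replicate 1) and 41 to 42 between the CD44 WT groups. It gave 0 to 3 other pathway genes in each line, 1 to 8 response genes in Hs578T and 3 to 6 in MDA-MB-231 (fewest without CD44 KO replicate 2 or 3). Over all genes tested these fits called 605 to 1685 in Hs578T, 355 to 763 in MDA-MB-231 and 396 to 804 in the difference. Library size alone moved the median log2 difference of all genes between the CD44 WT groups from 0.0399 to 0.159. Depth limits genes near 1 CPM, such as INHBA and CHRDL1 in Hs578T.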

Other observations

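Outside the 55 genes, 26 of 41 other pathway genes (63.4%) and 25 of 34 response genes (73.5%) differed between the CD44 WT groups, beside 61.5% of all genes tested, so the first share is near that of all genes. BMP7, a BMP ligand, had 1505 counts over the 3 Hs578T CD44 WT libraries and 0 over the MDA-MB-231 CD44 WT libraries, at least 460-fold higher when the 0 is set to 3 counts summed over that group. DLX5, a BMP-responsive homeobox gene, had 100 counts against 0, at least 30.6-fold higher, and SOSTDC1, a secreted BMP antagonist, had 28 against 0, at least 8.56-fold higher. These genes were named after their values were seen.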
